A study of Rattus norvegicus with 18 samples.

Results

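The genes described here encode the receptors for GABA, glycine and acetylcholine. They were taken by symbol: every probe set, apart from the 59 control probe sets, whose platform annotation held a single symbol beginning with Gabr, Gabbr, Glra, Glrb, Chrn or Chrm. This gave 59 probe sets of 40 genes, out of 1263 probe sets and 720 genes with a single symbol. By family they were 15 GABA-A subunit genes with 19 probe sets, 2 GABA-B genes with 8, 3 glycine receptor genes with 5, 15 nicotinic subunit genes with 18 and 5 muscarinic genes with 9, and 0 were Glrb.

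The series holds 18 arrays of rat cortical type-I astrocytes. For 12 of them the astrocytes had been plated on a surface coated with residues 25 to 35 of the beta-amyloid peptide. They were harvested after 12 hours, 1 day, 3 days or 5 days, and each time has 3 arrays. The 6 control arrays came from cells grown on laminin and nitrocellulose with no peptide. The comparison asks how the receptor transcripts of these glia stand at each time on the peptide. The labels give no time in culture for the controls, so time in culture and exposure cannot be told apart. Source labels read cerebral cortex for controls 1 and 2, whose titles name astrocytes, and cortical type-I astrocytes for the other 16 arrays. No label gives the age or sex of the animals, or says whether arrays of a group came from separate cultures. The p-values therefore reflect only the spread among these arrays, which may be technical. In a culture, fewer cells of a type and less RNA per cell cannot be told apart.

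GABA-A, glycine and nicotinic receptors are rings of subunits around an ion pore, and the subunits chosen set the pharmacology and kinetics of the channel. The GABA-A and glycine receptors pass chloride and the nicotinic receptors pass cations. The GABA-B receptor is a pair of G-protein-coupled subunits, Gabbr1 and Gabbr2, and the muscarinic receptors are G-protein-coupled receptors for acetylcholine. Most of these genes are best known from neurons and muscle, and astrocytes are known to carry GABA-A, GABA-B, muscarinic and nicotinic receptors.

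Signals are the deposited linear intensities, and a level is comparable between arrays for a given probe set but not between probe sets. Folds are differences of mean log2 signal. Probe sets were tested in limma across all 1027 that exceeded a signal of 44.9 on at least 3 arrays, with p-values adjusted over all of them and a threshold of 0.05. Of the receptor probe sets 48 were tested, 81.4%, against 81.3% of all probe sets, and they stood for 33 genes. The 11 that were not tested had the following ranges over the 18 arrays. Among GABA-A subunits these were 0.3 to 15.6 for a Gabra4 probe set (S55933_i_at), 2.4 to 65.2 for a Gabra5 probe set (L08494cds_s_at), 13 to 25 for Gabrb1, 3.1 to 14.1 for Gabrr2 and 3.4 to 40.7 for Gabrr3. Among glycine receptor subunits they were 0.8 to 25.9 for a Glra1 probe set (D00833_g_at), 2.4 to 33 for Glra2 and 0.5 to 16.4 for Glra3. Chrnb2 ranged over 15.5 to 59.1, Chrnb3 over 17.1 to 68.7 and a Chrm4 probe set (M16409_at) over 1.7 to 4.6.

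The 18 arrays fell into 2 clusters over all probe sets, and the clusters were the same with the receptor probe sets left out. Cluster 1 held 7 arrays, namely all 3 of 12 hours, array 3 of 1 day, array 3 of 3 days and controls 1 and 2. Cluster 2 held the other 11, among them all 3 of 5 days. The 2 clusters took 44.9% of the sum of squares, against 38.9% for the 5 groups. Marker lists were summed over the probe set of highest mean signal for each gene, so that a few bright genes carry most of a sum. For 8 measured astrocyte markers of 11 the sum was 38558.2 to 39896.6 at 12 hours, 41664.5 to 42339.6 at 5 days and 24072.3 to 38020.9 in controls. Vim and Glul were the bulk of it, and some probe sets were dim, such as Slc1a2 rc_AI044517_at at 7.7 to 62.1 in controls. Of 13 neuron markers 9 were measured, and on the probe set of highest mean signal 0 had a median at the floor of 11.3. Other probe sets of these genes were dimmer, such as Snap25 U56261_s_at, too dim to test, at 0.7 to 18.1 in controls. The neuron sum was 3316 to 3557.5 at 12 hours, 4871.5 to 5261.4 at 5 days and 3655 to 6200.3 in controls. The sum for 5 of 8 oligodendrocyte markers was 1624.9 to 1818.5, 1750.7 to 1904.7 and 1095 to 1917.9 in the same groups. For 2 of 5 fibroblast markers it was 3562.4 to 3748.6, 491.4 to 692.6 and 644.1 to 8633.3, and the 1 microglial marker measured of 6 lay at 32.1 to 40.1, 22.3 to 60.5 and 37.3 to 65.8. Eno2 made up most of the neuron sum, with 2283.3 to 2487.6 at 12 hours, against 2122.9 to 3538.9 in controls. Of the 16 tested neuron probe sets 13 had a log2 difference below 0 at 12 hours. Syn1 was called lower (-0.71, adjusted p = 0.0475), and Nefh rc_AA818677_at had 2.81 (adjusted p = 0.0606). Nefh rc_AA818677_at read 134 to 138.5 at 12 hours, against controls of 6.2 to 166.5 with a median of 10.5. Control 1 was the highest control, so the 12 hours arrays lay inside the control range. The other Nefh probe set, X13804cds_at, had -0.17. Of the 18 astrocyte probe sets 1, of Glul, was called higher at 12 hours (0.92, adjusted p = 0.044). By cluster the fibroblast sum was 3562.4 to 9282.7 in cluster 1 and 491.4 to 935.3 in cluster 2. Its 2 genes were Igf2 and Pdgfrb, and Igf2 X17012mRNA_s_at carried the split (3282.5 to 8743.8 and 211.2 to 645.3). Igf2 E00988mRNA_s_at also had no overlap (128.3 to 589.3 and 12.3 to 31.4). Pdgfrb overlapped (261 to 590.3 and 225.7 to 484.5), as did the other Igf2 probe sets, such as M17960_at (124.7 to 217.6 and 135.5 to 221.7). The sums of the other lists overlapped. Single probe sets without overlap included Slc1a3 S75687_s_at (115.9 to 186 and 492.9 to 2163.7) and Map2 U30938_at (31.1 to 74 and 241.1 to 631.9), both lower in cluster 1. They also included 2 that were higher in cluster 1, Gja1 rc_AI029183_s_at (4269.5 to 11591.7 and 810.6 to 3116.5) and Pdgfra AA944099_s_at (122.8 to 209.8 and 25 to 109.1). Others, such as Vim, overlapped, and 14.9% of all probe sets tested had no overlap. The part of these markers in the clusters was not tested.

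Of the 48 tested receptor probe sets, 1 passed against control, at 12 hours (2.08%, against 1.66% of all probe sets tested). Between 12 hours and 5 days 3 passed (6.25%, against 16.5% of all), and these include every receptor probe set that passed any test. Chrnb4, a nicotinic beta subunit that pairs with Chrna3 in autonomic ganglia, fell at 12 hours on 1 of its 2 probe sets, by 0.85 ± 0.20 on the log2 scale (SE), a 1.81-fold lower signal. Between 12 hours and 5 days, 1 probe set each of Chrnb4, Chrna7 and Gabbr1 rose, by 0.81 ± 0.23, 2.57 ± 0.49 and 1.68 ± 0.44. Chrna7 forms the homomeric nicotinic receptor, a calcium-permeable channel known in astrocytes, and Gabbr1 is the GABA-B subunit that binds GABA. Each of these genes has another probe set with a log2 difference of the other sign or near 0 in the same comparison, as described below. No GABA-A, glycine or muscarinic receptor passed the threshold in any of the 6 tests.

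The promoters of the 3 genes that passed are shown as context for these results, from 250 bases before to 50 bases after the annotated start, 5′ to 3′ on the gene's strand, as RefSeq gives them on the GRCr8 rat assembly. Of the 40 receptor genes, 33 had an entry in the promoter table. Capitals mark the GC box, GGGCGG or its complement CCGCCC.
Chrnb4, chr8:64333060-64333359, minus strand: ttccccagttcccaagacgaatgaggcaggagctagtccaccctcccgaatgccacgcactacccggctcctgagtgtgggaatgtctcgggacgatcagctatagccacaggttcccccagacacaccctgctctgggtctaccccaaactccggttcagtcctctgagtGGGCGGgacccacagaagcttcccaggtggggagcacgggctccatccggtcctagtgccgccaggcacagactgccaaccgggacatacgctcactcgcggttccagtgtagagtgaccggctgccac
Chrna7, chr1:126249080-126249379, minus strand: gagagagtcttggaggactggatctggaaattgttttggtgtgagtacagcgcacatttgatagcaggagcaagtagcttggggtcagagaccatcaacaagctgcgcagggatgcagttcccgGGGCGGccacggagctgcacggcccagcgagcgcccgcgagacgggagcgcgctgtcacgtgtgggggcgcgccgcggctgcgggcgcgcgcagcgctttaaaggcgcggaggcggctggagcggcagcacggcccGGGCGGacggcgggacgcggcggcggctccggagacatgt
Gabbr1, chr20:1499187-1499486, minus strand: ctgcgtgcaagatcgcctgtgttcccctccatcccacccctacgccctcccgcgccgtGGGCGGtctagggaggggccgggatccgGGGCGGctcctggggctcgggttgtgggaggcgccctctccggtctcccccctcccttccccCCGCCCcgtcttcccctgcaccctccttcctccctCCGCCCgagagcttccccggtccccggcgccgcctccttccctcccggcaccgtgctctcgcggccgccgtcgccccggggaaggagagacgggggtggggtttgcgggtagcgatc
The Chrnb4 promoter held 1 GC box and 62.3% G and C, the Chrna7 promoter 2 and 68.3%, and the Gabbr1 promoter 4 and 75%. A GC box on either strand was found in 19 of the 33 receptor promoters (57.6%) and in 33.1% of all 33469 promoters. The 33469 were every full-length entry and were not chosen by gene type, so they are not a matched background. The median G and C content was 60% in the receptor promoters and 51.7% in all. The TATA box TATAAA was in 4 receptor promoters (12.1%) and 14.2% of all, CCAAT in 9 (27.3%) and 37.5%, and TGACGTCA in 0 and 1.83%. None of these 3 letter strings, read on both strands, was in the 3 promoters shown. No motif of the 4 contains another, and a match is a description of letters only. In RefSeq order, several receptor genes lie next to each other with 0 coding genes between: Chrna5, Chrna3 and Chrnb4 on chromosome 8, Chrnd and Chrng on 9, Gabrg3 and Gabra5 on 1, Gabrr2 and Gabrr1 on 5, Gabra6 and Gabrb2 on 10, Gabrb1 and Gabra4 on 14, Gabra2 and Gabrg1 on 14, and Chrna6 and Chrnb3 on 16.

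**Figure D1:**
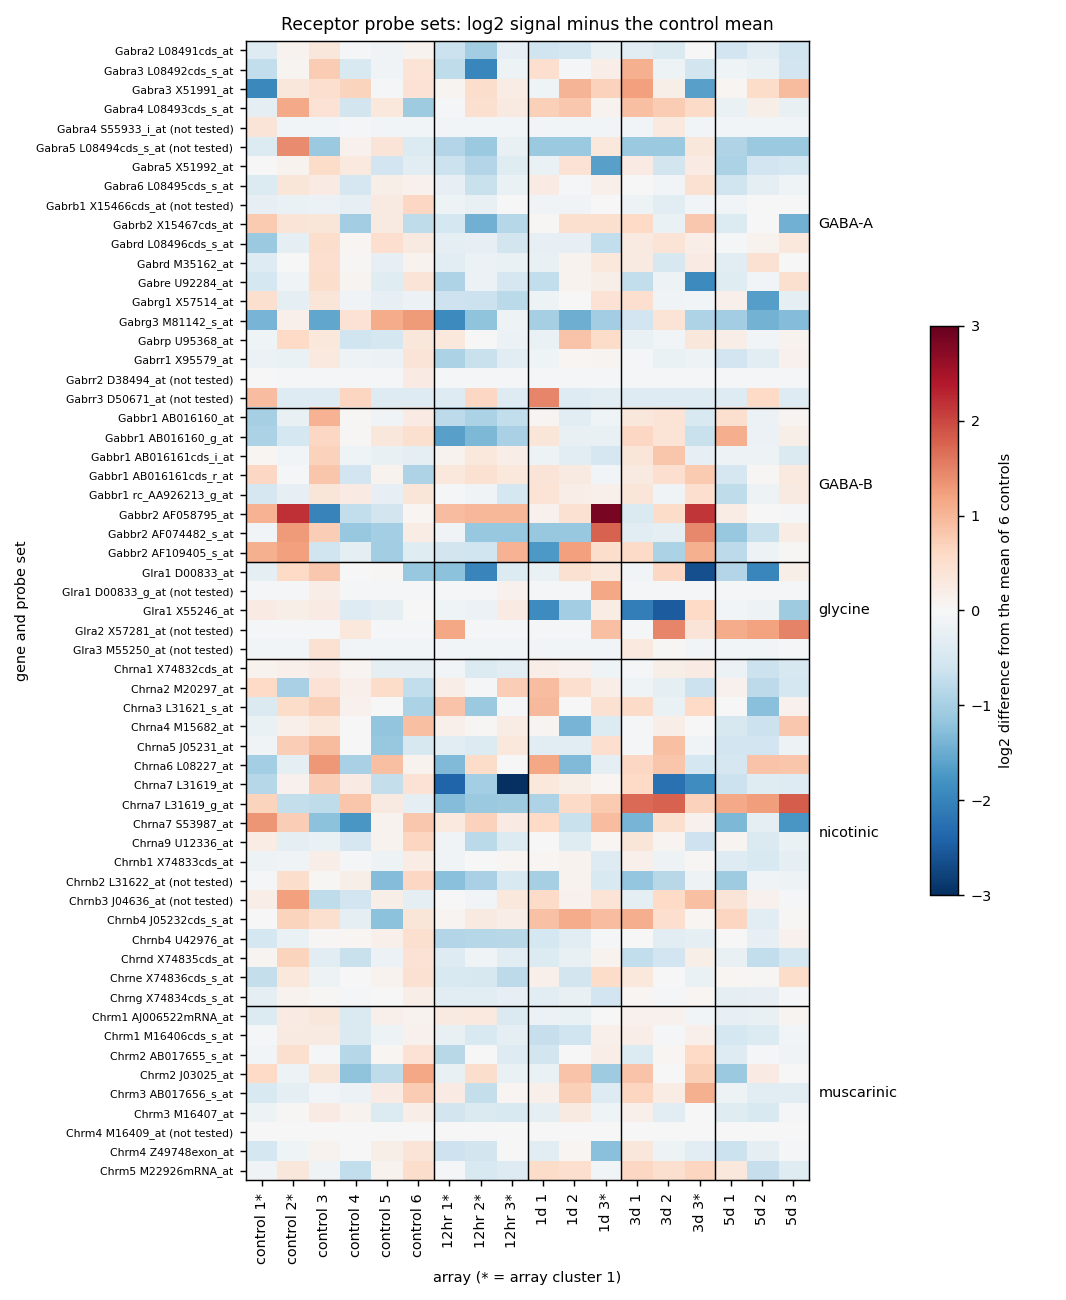
All 59 receptor probe sets (rows, by family) on the 18 arrays (columns, from control through 12 hours, 1 day and 3 days to 5 days), coloured by log2 signal minus the mean of the 6 controls, with arrays of cluster 1 starred. Most cells are pale, with darker cells in rows that include those of Chrna7, Gabbr2 AF058795_at, Glra1 X55246_at, Glra1 D00833_at and Gabrg3.

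At 12 hours 1 of the 48 tested receptor probe sets passed the adjusted threshold in limma, that of Chrnb4, against 1.66% of all probe sets tested and 0.876% called lower. By unadjusted p under 0.05, 12 receptor probe sets were counted, all with lower signal, or 25%, against 29.3% of all in either direction and 18.3% lower. All 3 arrays lay outside the control range for 7 of the 48, again all lower, or 14.6%, against 15% of all in either direction and 9.64% lower. In either direction these shares were close to those of all probe sets. Counted as lower alone, the receptor shares were above them, and that difference was not tested. Of the 48, 36 had a log2 difference below 0 with a median of -0.30, against a median of -0.18 over all 1027. With each array centred on its median, 30 of the 48 were below 0, and the medians were -0.10 for receptors and 0.02 for all probe sets. The calls over all probe sets split into 8 higher and 9 lower, and into 7 and 1 under quantile normalization, 10 and 5 with median centring and 3 and 1 under cyclic loess. By family the median at 12 hours was -0.59 for GABA-A, -0.13 for GABA-B, -0.61 for the 2 glycine receptor probe sets, -0.27 for nicotinic and -0.31 for muscarinic receptors.

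The Chrnb4 probe set that was called (U42976_at) had 162.2, 164.1 and 167.8 at 12 hours, against a lowest control of 205.4, a median of 307 and a highest of 415.5. All 3 arrays of 12 hours lay below all 6 controls, and they differed from one another by little. The means were 164.7 ± 2.85 at 12 hours (SD, n = 3) and 304.4 ± 70.5 in controls (SD, n = 6), and limma's adjusted p was 0.0475. At the later times this probe set read 205.6, 234.6 and 288 at 1 day, 302, 236.4 and 244.5 at 3 days, and 298.8, 249.9 and 323.5 at 5 days, against the same controls. Those arrays all fell within the control range. The 2 controls in cluster 1, which read 205.4 and 260.2, were the lowest of the 6, and so the 12 hours arrays were also the lowest 3 of the 7 arrays of cluster 1. Within that cluster the log2 difference was -0.49 with an adjusted p of 0.347, and with the clusters as a block it was -0.72 with an adjusted p of 0.133. Under quantile normalization, median centring and cyclic loess it was -0.69, -0.66 and -0.74, with adjusted p-values of 0.104, 0.0704 and 0.0726. Without controls 1 and 2 it was -1.03 with an adjusted p of 0.0018, but exposure and cluster cannot be told apart there. The controls that remain in that fit are all of cluster 2 and the 12 hours arrays all of cluster 1. Without controls 4 to 6, an alternative added after seeing the data, the log2 difference was -0.62 with an adjusted p of 0.347. The call was kept when control 1 or control 2 was left out and was lost when any of the other 16 arrays was left out in turn, with log2 differences of -0.87 to -0.76 and adjusted p-values of 0.0509 to 0.161. The part of the neuron and astrocyte markers, whose values at 12 hours stand above, was not tested.

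The second Chrnb4 probe set (J05232cds_s_at) had 203, 229.4 and 218.9 at 12 hours, against controls of 81.9 to 304.9 with a median of 218. At 12 hours it lay inside the control range, with a log2 difference of 0.19 ± 0.36. At 1 day it had 351.1, 410.6 and 359.9, all above the highest control, with a log2 difference of 0.97 ± 0.36 and an adjusted p of 0.361. Readings were 408.4, 269.4 and 197.7 at 3 days and 300.2, 150.8 and 196.7 at 5 days, where the log2 differences were 0.55 and 0.12. The 2 probe sets of Chrnb4 thus had log2 differences of opposite sign at 12 hours, 1 day, 3 days and 5 days.

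Chrna7 had the largest receptor contrast between times. Its probe set L31619_g_at read 102.8, 110.5 and 164.3 at 5 days, against 18.8, 21.4 and 22.3 at 12 hours. Every array of 5 days was above every array of 12 hours, and the log2 difference was 2.57 ± 0.49, a 5.92-fold higher signal with a limma adjusted p of 0.0107. The same probe set read 24.3, 68.9 and 80.3 at 1 day and 151.9, 158 and 75.1 at 3 days, against controls of 27.3 to 82.3 with a median of 47.4. All 3 arrays of 5 days and 2 of 3 days were above the highest control, and all 3 of 12 hours were below the lowest. Against control the log2 differences were -1.16 at 12 hours, 0.14 at 1 day, 1.39 ± 0.43 at 3 days and 1.40 ± 0.43 at 5 days, with adjusted p-values of 0.113, 0.948, 0.877 and 0.412. In the F-test over the 5 groups it was the 1 receptor probe set called (adjusted p = 0.0414), against 1.66% of all, and 6 passed unadjusted p under 0.05, or 12.5%, against 25.1% of all. The F-test call was lost under several alternatives, among them quantile normalization, median centring, cyclic loess, no filter and the cluster block. It was kept without array 1 or 3 of 1 day, array 3 of 3 days or any of controls 1 to 4 and lost without any of the other 11 arrays.

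The other probe sets of Chrna7 did not follow this course. L31619_at had 24.2, 63.1 and 12.7 at 12 hours, against controls of 70.6 to 212.1 with a median of 146, so the groups did not overlap. Its log2 difference was -2.25 ± 0.57 with an adjusted p of 0.0596, and at 5 days, with 81.7, 98.5 and 97.9, it was -0.47. At 3 days this probe set read 192.6, 27.1 and 34.8, for a log2 difference of -1.17. At 1 day it read 158.7, 144.8 and 132.3, inside the control range. The third, S53987_at, had 15, 31.2 and 7.9 at 5 days, against controls of 8.8 to 95.4, with a log2 difference of -1.13 ± 0.64. It read 47, 61 and 45.1 at 12 hours, so every array of 5 days was below every array of 12 hours. From 12 hours to 5 days the log2 differences of the 3 probe sets were 2.57, 1.78 (adjusted p = 0.0735) and -1.54 (adjusted p = 0.162), so they did not share a sign.

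Gabbr1 is represented by 5 probe sets. AB016160_g_at had 393.4, 164.3 and 209 at 5 days, against 59.6, 73 and 94.5 at 12 hours. The 3 arrays of 5 days lay above all 3 of 12 hours, with a log2 difference of 1.68 ± 0.44, a 3.20-fold higher signal and an adjusted p of 0.0314. Against controls of 95.3 to 285.3 with a median of 212, the 12 hours arrays were below the lowest, with a log2 difference of -1.32 ± 0.39 and an adjusted p of 0.0881. This probe set read 237.6, 159.9 and 158 at 1 day and 283.8, 245 and 117.2 at 3 days, all within the control range. AB016160_at, from the same sequence entry, had 304.3, 271.8 and 311.8 at 12 hours, against controls of 260.5 to 1069.2 with a median of 512, and 553, 411.2 and 476.9 at 1 day, 655.8, 692.1 and 377.1 at 3 days and 727.8, 460.6 and 555.3 at 5 days. All 3 arrays of 12 hours were above control 1 and below the other 5 controls. The log2 difference was -0.82 ± 0.33, and from 12 hours to 5 days it was 0.95 with an adjusted p of 0.0982.

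The remaining Gabbr1 probe sets gave smaller differences. AB016161cds_r_at had 229.9, 254.4 and 231.4 at 12 hours, against controls of 97.1 to 330.6 with a median of 190, and a log2 difference of 0.36. It read 243, 223.8 and 175.5 at 1 day, 225.9, 263.2 and 321.2 at 3 days and 131.4, 191.7 and 226.5 at 5 days. These all lay within the control range. AB016161cds_i_at had 164, 190 and 174.2 at 12 hours, 137.3, 120.5 and 108.3 at 1 day, 196.2, 269.9 and 128.5 at 3 days and 136.6, 136.1 and 112 at 5 days, against controls of 124.6 to 244.6 with a median of 141. Its log2 difference was 0.21 at 12 hours, and from 12 hours to 5 days it was -0.46, with -0.42 for AB016161cds_r_at. On both of these probe sets every array of 5 days was below every array of 12 hours. The fifth, rc_AA926213_g_at, had 323.7, 315.8 and 235.6 at 12 hours, 454.3, 387.6 and 376.5 at 1 day, 436.5, 317.5 and 484.7 at 3 days and 201.3, 303.1 and 408 at 5 days, against controls of 238.6 to 436.9 with a median of 347. Its log2 differences from control ran from -0.23 to 0.26, and from 12 hours to 5 days it was 0.02.

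Over all receptor probe sets, the contrast of 5 days against 12 hours called 3 of 48, or 6.25%, all higher, against 16.5% of all probe sets and 8.96% called higher. By unadjusted p under 0.05 it was 6, or 12.5%, against 31.9% of all, and 12 had no overlap of the arrays, or 25%, against 53.7% of all. By each count the share of receptor probe sets was below that of all probe sets, and this difference in shares was not tested. Among marker probe sets in the same contrast, 3 of neurons were called higher at 5 days and 1 lower (Nefh, -2.97), and 2 of astrocytes higher (both Slc1a3, 3.52 and 3.28) and 1 lower (Glul, -0.84). Of the 6 tested fibroblast probe sets 0 were called, and 2 had a log2 difference above 0 and 4 below. They ran from -3.78 (Igf2 X17012mRNA_s_at, adjusted p = 0.0759) to 0.38 (Pdgfrb). The part of these markers was not tested. All arrays of 12 hours lay in cluster 1 and all of 5 days in cluster 2, so time and cluster cannot be told apart by these 6 arrays alone. With the clusters as a block, which the other groups allow, the log2 differences were 2.53 for Chrna7, 0.75 for Gabbr1 and 0.60 for Chrnb4, with adjusted p-values of 0.150, 0.397 and 0.327, and 0 of all 1027 were called. On the 4 arrays of cluster 1 from other groups, Chrna7 L31619_g_at read 73.6, 28.2, 80.3 and 75.1, above all 3 arrays of 12 hours. On the arrays of cluster 2 from other groups it ran from 24.3 to 158, with controls 3 and 6 at 27.3 and 38.5. Over all arrays its median was 28.2 in cluster 1 and 82.3 in cluster 2.

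Single arrays bore on these 3 calls. The Chrna7 call was lost without array 2 of 12 hours (log2 2.59, adjusted p = 0.0542) or array 3 of 5 days (2.36, adjusted p = 0.0696). Without any of the 6 arrays of the contrast in turn, the Gabbr1 call was lost, with log2 differences of 1.32 to 1.95 and adjusted p-values of 0.0687 to 0.108. The Chrnb4 call was lost without any of the same 6 (0.73 to 0.92, adjusted p of 0.0792 to 0.122) and without array 2 of 1 day (0.81, adjusted p = 0.0529). Under quantile normalization the Chrnb4 difference was 0.65 with an adjusted p of 0.0621. In each of these fits the direction stayed the same.

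**Figure D2:**
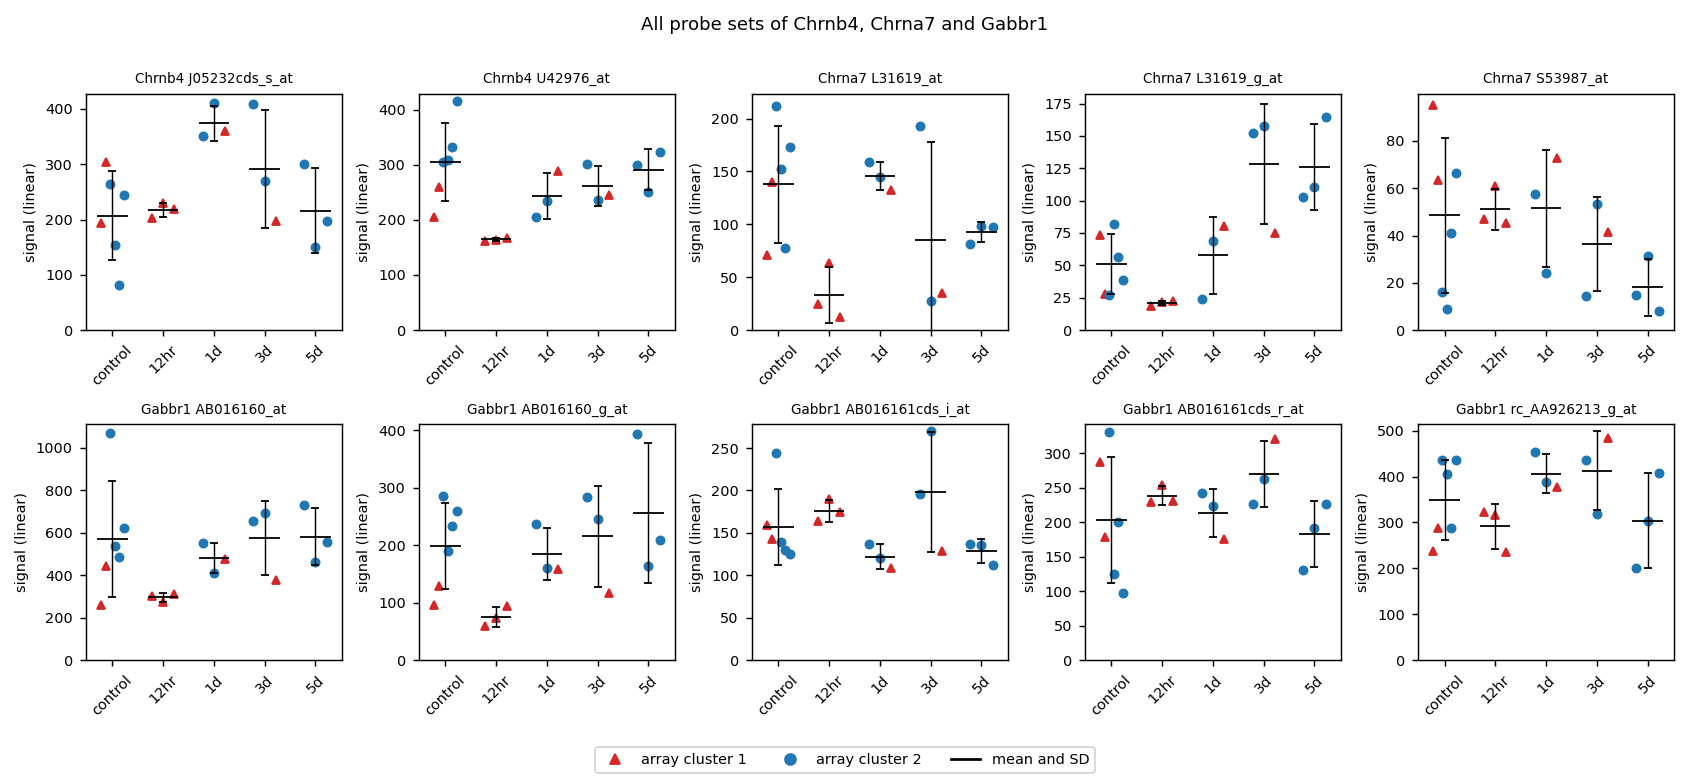
Linear signal on each array (points) for all probe sets of Chrnb4, Chrna7 and Gabbr1, by group, with the mean and SD (bars, not drawn below 0) and the array cluster by symbol. In Chrna7 L31619_g_at the 12 hours arrays sit at 18.8 to 22.3 and the 5 days arrays at 102.8 to 164.3, while the probe sets of each gene differ in their course.

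The partner subunit Gabbr2, which carries the GABA-B receptor to the surface and couples it to G proteins, had the largest SE of the tested receptor probe sets, 0.78 on the log2 scale. Its probe set AF058795_at read 183.8, 192.2 and 193.4 at 12 hours, 106.1, 133 and 697.8 at 1 day, 71.2, 141.9 and 427.2 at 3 days and 113.5, 97.4 and 92.7 at 5 days, against controls of 24 to 440.4 with a median of 83.6. The 7 arrays of cluster 1 had 183.8 to 697.8 and the 11 of cluster 2 had 24 to 141.9, without overlap. Array 3 of 1 day, array 3 of 3 days and control 2 were the 3 highest. Such a lack of overlap between clusters was found for 2 of the 48 receptor probe sets, against 14.9% of all, and the other was Gabbr1 AB016160_g_at, with 59.6 to 158 in cluster 1 and 159.9 to 393.4 in cluster 2. For AF058795_at the log2 difference at 12 hours was 0.97 ± 0.78 with an adjusted p of 0.4, and it was -0.64 within cluster 1. The other Gabbr2 probe sets, AF074482_s_at and AF109405_s_at, had log2 differences of -0.79 and -0.03 at 12 hours and -0.17 and 0.01 at 1 day. They ranged over 4 to 83.6 and 18.1 to 141.1.

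Glra1, the ligand-binding alpha subunit of the adult glycine receptor of spinal cord and brainstem, had no call with all arrays and was called with some arrays left out. Its probe set X55246_at read 58.3, 55.8 and 75.3 at 12 hours, 17.1, 30.9 and 74.1 at 1 day, 15.1, 10.9 and 95.1 at 3 days and 59.3, 57.3 and 30.1 at 5 days, against controls of 48.1 to 75.6 with a median of 67.6. At 1 day and 3 days arrays 1 and 2 were below all controls, and array 3, which lies in cluster 1, was within the control range at 1 day and above it at 3 days. The log2 difference was -0.90 ± 0.55 at 1 day and -1.32 ± 0.55 at 3 days, with adjusted p-values of 0.576 and 0.877. Without the third arrays of both times, an alternative chosen after seeing the data, it was -1.46 at 1 day (adjusted p = 0.0205) and -2.28 at 3 days (adjusted p = 0.00348). Without array 3 of 3 days alone it was -2.28 at 3 days (adjusted p = 0.0434). Within cluster 2 it was -1.36 at 1 day and -2.17 at 3 days (adjusted p = 0.0383 and 0.0482), and within cluster 1 it was 0.38 at 3 days. Another Glra1 probe set, D00833_at, read 29.8, 17.9 and 53.1 at 12 hours, 61.8, 97.2 and 87.7 at 1 day, 66.5, 108.8 and 9.1 at 3 days and 38.3, 18.1 and 80 at 5 days, against controls of 31.8 to 124.4 with a median of 71.2. On D00833_at, array 3 was the lowest of the 3 days arrays, not the highest, and the log2 differences were 0.20 at 1 day and -0.70 at 3 days.

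**Figure D3:**
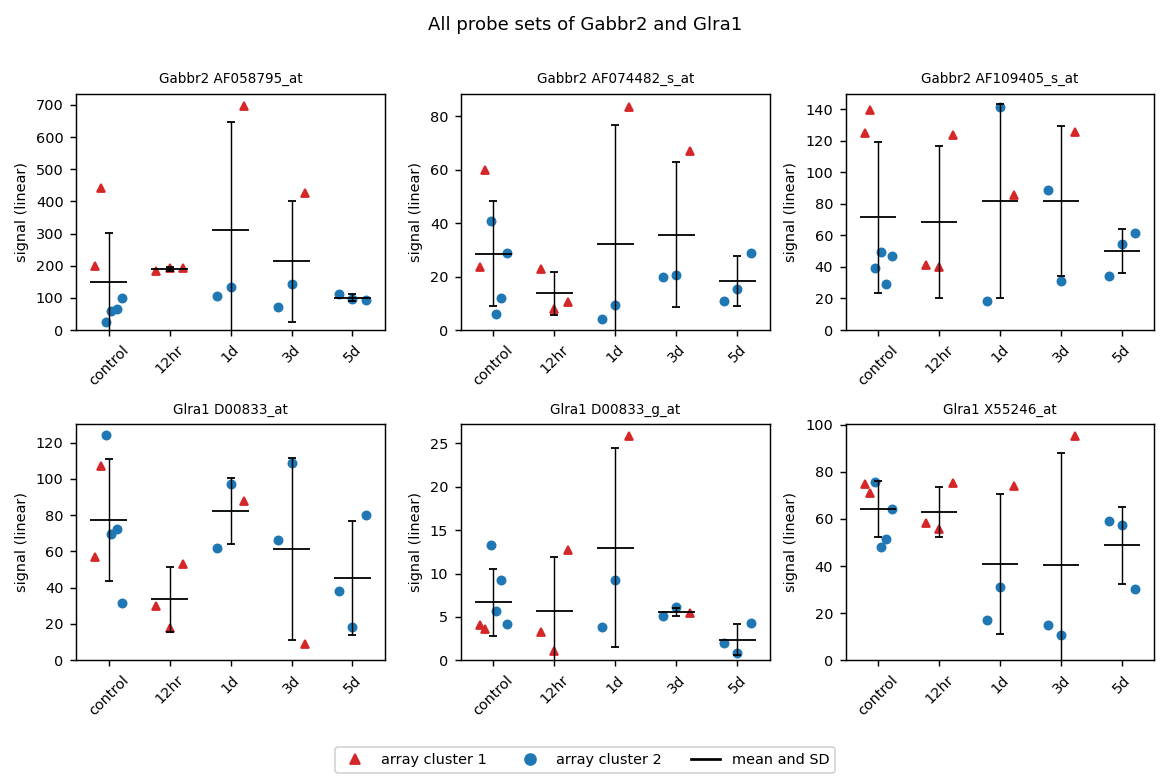
Linear signal on each array (points) for the probe sets of Gabbr2 and Glra1, by group, with the mean and SD (bars, not drawn below 0) and the array cluster by symbol. For Gabbr2 AF058795_at the arrays of cluster 1 lie at 183.8 to 697.8, above those of cluster 2, and for Glra1 X55246_at the low arrays at 1 day and 3 days are arrays 1 and 2.

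At the later times 0 receptor probe sets were called against control. At 1 day 0 receptor probe sets passed limma's adjusted threshold, against 0.292% of all. By unadjusted p under 0.05 it was 3, or 6.25%, against 11.7%, and 1 had no overlap with controls, or 2.08%, against 1.75%. At 3 days 0 passed, against 0% of all, 4 had an unadjusted p under 0.05, or 8.33%, against 4.58%, and 0 lay outside the control range, against 1.56%. At 5 days 0 passed, against 0% of all, 5 had an unadjusted p under 0.05, or 10.4%, against 9.15%, and 2 lay outside the control range, or 4.17%, against 5.36%. The median log2 difference of the 48 was -0.01 at 1 day, 0.09 at 3 days and -0.27 at 5 days, against -0.05, 0.02 and -0.14 over all probe sets. By family, 8 of 8 muscarinic probe sets had a log2 difference below 0 at 5 days, with a median of -0.28 and 0 called, against 63.1% of all probe sets below 0. All 8 GABA-B probe sets were above 0 at 3 days, with a median of 0.27 and 0 called, against 52.8% of all probe sets above 0. Probe sets of a gene are not independent, since the 8 GABA-B sets stand for 2 genes.

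**Figure D4:**
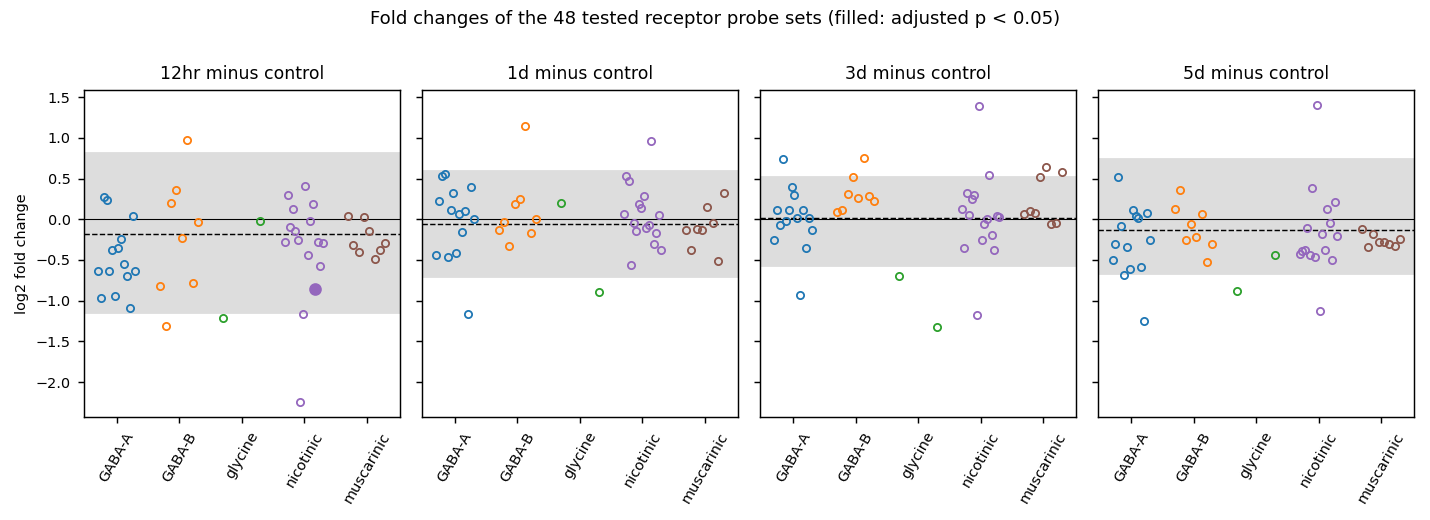
Log2 difference from control of the 48 tested receptor probe sets (points) by family at 12 hours, 1 day, 3 days and 5 days, with the median of all 1027 probe sets (dashed) and the range of their central 80% (grey band). The filled point is the called Chrnb4 probe set at -0.85, and most receptor points lie inside the band.

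The GABA-A probe sets described first, chosen by mean signal, were those of Gabrr1 and Gabrd. Gabrr1, a rho subunit best known from retina, had 152.7, 185.5 and 235.4 at 12 hours, 269.6, 303.1 and 308 at 1 day, 281.6, 253.5 and 265.6 at 3 days and 198.5, 231.1 and 322.3 at 5 days, against controls of 256.7 to 386.5 with a median of 263. All 3 arrays of 12 hours were below the lowest control, with a log2 difference of -0.64 ± 0.20 and an adjusted p of 0.102. Gabrd, the delta subunit of extrasynaptic receptors, read 222.4, 226.3 and 184.2 at 12 hours on L08496cds_s_at, 227.6, 224.2 and 161.5 at 1 day, 323.1, 358.9 and 308.3 at 3 days and 255.7, 288.3 and 332.3 at 5 days, against controls of 124.4 to 388.2 with a median of 302. Control 1 was the lowest of all arrays for this probe set. Its log2 differences were -0.35, -0.41, 0.30 and 0.12 in order of time. The other Gabrd probe set, M35162_at, read 99.1, 111.2 and 110.2 at 12 hours, 107.5, 135.1 and 156.4 at 1 day, 152.5, 90.1 and 150.4 at 3 days and 99, 173.9 and 126.7 at 5 days, against controls of 95.6 to 178 with a median of 128, and its log2 differences ran from -0.24 to 0.06.

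Gabra2, an alpha subunit of benzodiazepine-sensitive receptors, had 74.9, 56.7 and 97.6 at 12 hours, 76.6, 80.2 and 101.9 at 1 day, 92.6, 86.3 and 117.2 at 3 days and 78.1, 93.9 and 76.5 at 5 days, against controls of 88.5 to 148.2 with a median of 118. Of the 12 exposed arrays, 7 lay below control 1, the lowest control. The log2 differences were -0.64, -0.44, -0.25 and -0.50 in order of time, with adjusted p-values of 0.102, 0.426, 0.999 and 0.469. Gabrg3, a gamma subunit, had 11.7, 19 and 39 at 12 hours, 22, 15.7 and 21.3 at 1 day, 29.5, 58.4 and 22.9 at 3 days and 21.3, 16.2 and 17.7 at 5 days, against controls of 14.7 to 105.5 with a median of 53.6. Its log2 differences were -1.09, -1.16, -0.36 and -1.25 with an SE of 0.59, and the exposed arrays overlapped the lowest controls at every time.

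Further GABA-A probe sets were named by rank, as among the 3 smallest unadjusted p-values in their direction at a given time. In limma these were not all small, with 0.150 for Gabra4 at 1 day and 0.393 for Gabra3 at 5 days. Gabre, the epsilon subunit, had 60.7, 90.2 and 27 at 3 days, against controls of 69.4 to 144.9 with a median of 100, and a log2 difference of -0.93 ± 0.36 (adjusted p = 0.877). Its other log2 differences were -0.54 at 12 hours, -0.15 at 1 day and 0.02 at 5 days, with 52.6, 88.7 and 70.6, then 60.4, 107.8 and 114.2, and then 78.6, 95.1 and 141.3. Gabra4, an alpha subunit of extrasynaptic receptors, had 50.8, 72.1 and 63.1 at 12 hours, 85.6, 91.6 and 56.3 at 1 day, 96.8, 88 and 77.3 at 3 days and 45.4, 58.6 and 44.5 at 5 days on L08493cds_s_at, against controls of 24.7 to 115 with a median of 53.7. Every one of these arrays lay inside the control range, and the log2 differences were 0.24, 0.55, 0.74 and -0.08. Gabra3, another alpha subunit, had 44.8, 62.5 and 82.8 at 5 days on X51991_at, against controls of 10 to 68.8 with a median of 56.3, and log2 differences of 0.28, 0.53, -0.07 and 0.51 in order of time. On X51991_at the earlier arrays read 45.7, 62 and 50 at 12 hours, 39.1, 87.7 and 69.8 at 1 day and 100.9, 48.9 and 13.9 at 3 days. The other Gabra3 probe set, L08492cds_s_at, had a log2 difference of -0.96 ± 0.42 at 12 hours (adjusted p = 0.149), opposite in sign to the first. Its later log2 differences were 0.22, 0.12 and -0.30 in order of time, so at 5 days the signs were again opposite. The tested GABA-A probe sets not described here, those of Gabra5, Gabra6, Gabrb2, Gabrg1 and Gabrp, had 0 calls, with log2 differences of -0.95 (Gabrb2, 12 hours) to 0.40 (Gabrb2, 3 days).

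Among the other nicotinic subunits, Chrng is the gamma subunit of the fetal muscle receptor. It had 567.3, 559.1 and 589.9 at 12 hours, 554, 603.4 and 473.7 at 1 day, 727.2, 682.1 and 729.5 at 3 days and 568, 592.9 and 672 at 5 days, against controls of 578.8 to 805.2 with a median of 704. Control 1 was the lowest control, and 2 of the 3 arrays at 12 hours and at 1 day were below it. The log2 differences were -0.29, -0.37 ± 0.15, 0.02 and -0.20, with adjusted p-values of 0.192, 0.382, 0.999 and 0.589. Chrnb1, the beta subunit of the muscle receptor, had 177.5, 168.6 and 189.2 at 5 days, against controls of 208.3 to 272.6 with a median of 222. All 3 arrays of 5 days were below the lowest control, with a log2 difference of -0.38 ± 0.16 and an adjusted p of 0.469. At the earlier times Chrnb1 read 216.5, 230.2 and 240.2 at 12 hours, 243.3, 252.1 and 178.2 at 1 day and 256.4, 209.4 and 236.6 at 3 days, with log2 differences of -0.02, -0.07 and 0.01.

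Chrna1, the agonist-binding subunit of the muscle receptor, had 165.7, 119.6 and 133.4 at 5 days, against controls of 150.8 to 221.3 with a median of 199, and a log2 difference of -0.43 ± 0.18 (adjusted p = 0.469). It read 175.5, 138.9 and 148.4 at 12 hours, 211.6, 201.8 and 170.9 at 1 day and 180.8, 209.9 and 221.9 at 3 days, so that 2 arrays of 12 hours and 2 of 5 days were below the lowest control. Chrna2, a neuronal alpha subunit, had 131.8, 98.5 and 80 at 1 day, against controls of 35.4 to 105.9 with a median of 85.8, and log2 differences of 0.29, 0.54, -0.35 and -0.39 in order of time. Its other values were 80.6, 66.8 and 116.4 at 12 hours, 64.2, 56.8 and 44.8 at 3 days and 76.5, 40.7 and 48.2 at 5 days, and all but 2 arrays of the 12 lay inside the control range. The remaining tested nicotinic probe sets, those of Chrna3, Chrna4, Chrna5, Chrna6, Chrna9, Chrnd and Chrne, had 0 calls. Among them the lowest log2 difference from control was -0.58 for Chrne at 12 hours and the highest 0.47 for Chrna3 at 1 day. Chrna3 and Chrna5, which neighbour Chrnb4 in the genome, had log2 differences of -0.10 and -0.14 at 12 hours.

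Muscarinic receptors showed 0 calls. Chrm3, coupled to phospholipase C, had 138.9, 150.3 and 147.6 at 12 hours on M16407_at, 165.3, 247.1 and 185.7 at 1 day, 225.9, 162.2 and 202.9 at 3 days and 157.3, 147.5 and 194.6 at 5 days, against controls of 152.7 to 240.6 with a median of 213. The 3 arrays of 12 hours were below the lowest control, by little, with a log2 difference of -0.48 ± 0.19 and an adjusted p of 0.124. On AB017656_s_at, Chrm3 had 68.9, 51.8 and 93.4 at 3 days, against controls of 32 to 75.1 with a median of 40.5, and a log2 difference of 0.65 ± 0.31 (adjusted p = 0.947), where M16407_at gave -0.06. AB017656_s_at read 52.4, 26.9 and 46.1 at 12 hours, 49.3, 72.4 and 33.6 at 1 day and 39.8, 34.9 and 35.4 at 5 days.

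Chrm5, also coupled to phospholipase C, had 241.4, 217.8 and 241.7 at 3 days, against controls of 93.9 to 223.3 with a median of 156, and a log2 difference of 0.58 ± 0.27 (adjusted p = 0.947). Of these arrays 2 lay above the highest control. It read 150.4, 113.9 and 119.1 at 12 hours, 229.8, 221.2 and 146.3 at 1 day and 195.3, 96.2 and 122 at 5 days, with log2 differences of -0.30, 0.33 and -0.24. Chrm4, which inhibits adenylyl cyclase, had 157.4, 166.4 and 245.4 at 12 hours, 193.5, 250.9 and 100.7 at 1 day, 304.7, 216.5 and 193.7 at 3 days and 154.6, 198.6 and 231.5 at 5 days on Z49748exon_at, against controls of 169.1 to 315.3 with a median of 250. Its log2 differences were -0.38, -0.51, -0.05 and -0.33, and array 3 of 1 day was the lowest. The probe sets of Chrm1 and Chrm2 had log2 differences from -0.41 (Chrm2 AB017655_s_at at 12 hours) to 0.53 (Chrm2 J03025_at at 3 days).

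Glra2, a fetal glycine receptor subunit named as the third glycine probe set by signal, was too dim to test. It read 26.5, 7.1 and 8.9 at 12 hours, 2.4, 9.1 and 22.1 at 1 day, 7.6, 32.8 and 15.3 at 3 days and 25.7, 27.1 and 33 at 5 days, against controls of 7.7 to 14.6 with a median of 9.75. All 3 arrays of 5 days were above the highest control, but 5 of the 6 controls lay under the floor of 11.3.

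Genes that make, move or break down the transmitters were counted from fixed lists. Of 9 genes of GABA metabolism and transport 5 were measured, and 0 of their 6 probe sets were called in any contrast. Gad1, which makes GABA, read 29.3 to 46.3 at 3 days, against 54.2 to 151.4 in controls, for a log2 difference of -1.17 that did not pass, and -0.39 at 12 hours. For Slc6a11, a GABA transporter known from astrocytes, the log2 difference ran from -0.20 at 12 hours to 0.02 at 1 day. Of 6 genes of acetylcholine synthesis, transport and breakdown 3 were measured with 0 calls, and Ache, the esterase, was too dim to test at 2.4 to 5.4. Of 12 receptor anchors and partners 1 was measured, Agrn, which clusters nicotinic receptors at the muscle synapse, with log2 differences of -1.12 (adjusted p = 0.0573) and -0.99 on its 2 probe sets at 12 hours. From the lists of glycine transport and of chloride cotransport, 0 genes were measured.

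Controls 1 and 2, the 2 labelled cerebral cortex, are the only controls of cluster 1, which also holds all arrays of 12 hours. With them left out, exposure and cluster cannot be told apart at 12 hours. In that fit 7 receptor probe sets were called at 12 hours, all lower, in place of 1. These were both AB016160 probe sets of Gabbr1 (-1.69 and -1.13), Chrna7 L31619_at (-2.43), Chrnb4 U42976_at (-1.03), Gabrr1 (-0.73), Gabra2 (-0.71) and Gabrd L08496cds_s_at (-0.70). The same count was 7 without control 1 alone and 1 without control 2 alone. With single arrays left out, the count over all 1027 probe sets at 12 hours ran from 1 to 211. Over all probe sets, the count at 12 hours without both controls was 321 of 1027, against 17 with all 6 controls. Beside it stand 7 of 48 receptor probe sets, a smaller share than that of all probe sets, so the rise was not limited to the receptors. This difference in shares was not tested. With both controls left out, Gabrd L08496cds_s_at was called at 1 day (-0.75, adjusted p = 0.0311), and at 3 days and 5 days the receptor count stayed 0. Over all probe sets the count at 1 day ran from 0 to 123 in alternatives other than those that leave out a single array.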

How the data were processed

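For each array the authors deposited a linear intensity, the signal, of 1322 probe sets. How they computed and scaled it is not given in the sources used here. With 2% of values trimmed at each end, array means ran from 502.067 to 502.632, so the signals had already been scaled and were used as deposited. There were no detection calls. Probe sets were named through GEO's platform annotation, and all 59 receptor probe sets matched RefSeq by gene identifier. Each probe set was kept apart.

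Signals under the 10th percentile of the table (11.3) were raised to that value before taking log2. Probe sets above the 30th percentile (44.9) on at least 3 arrays were tested in limma 3.58.1 on R 4.3.3 (lmFit, eBayes), with 5 groups, 13 residual degrees of freedom, two-sided moderated tests and Benjamini-Hochberg adjustment over all 1027. The tests were each time against control, 5 days against 12 hours, and an F-test over the groups. The procedure was tested on simulated data. Precision is limited by how many arrays there are.

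The receptor genes, gene lists and tests were chosen with earlier results of these data known. Receptor probe sets were named if past the threshold, if among the 3 of highest mean log2 signal of their family, or if among the 3 smallest p-values in each direction against control. Other probe sets of a gene so named are given by their log2 differences. The array clusters came from average linkage, with 1 minus the Pearson correlation of log2 signals as the distance. Alternatives were other scalings, floors, filters and variance models, the clusters, source labels and replicate numbers, and each array left out in turn. Fits without array 3 of 1 day and of 3 days, and without controls 4 to 6, were added after seeing the data.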

Additional observations from a re-analysis of the deposited data

Results flagged for a closer look

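The 6 controls were examined for single arrays that stand apart, by the gap to the nearest array as a share of the group's range (Dixon's test), in 29 named receptor probe sets. On 3 of them an array stood apart, and chance flags about 1 group in 20. Control 4 had 14.6 for Glra2 X57281_at, a dim probe set that was not tested, where the other 5 controls had 7.7 to 10.5. The gaps were taken on log2 signals after the floor, which made those 5 controls equal. The floor thus fixed this flag, and it says nothing of control 4. Control 3 had 244.6 for Gabbr1 AB016161cds_i_at, where the other 5 had 124.6 to 159.3. Control 1, labelled cerebral cortex, had 10 for Gabra3 X51991_at, where the other 5 had 42 to 68.8.

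The difference between the effects at 5 days and at 12 hours, tested directly in limma, passed the threshold for 3 receptor probe sets. It was 0.8117 on the log2 scale for Chrnb4 U42976_at (adjusted p = 0.0409), 1.679 for Gabbr1 AB016160_g_at (adjusted p = 0.0314) and 2.567 for Chrna7 L31619_g_at (adjusted p = 0.0107). All arrays of 5 days lie in cluster 2 and all of 12 hours in cluster 1.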

How the results depend on the processing

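The counts below are of receptor probe sets past an adjusted p of 0.05 in limma. At 12 hours against control the count of 1 became 0 under quantile normalization, with arrays centred on the median, under cyclic loess, with the array clusters as a block, within cluster 1, with the replicate block and with controls 4 to 6 left out (no pairing), and 7 with the controls labelled cerebral cortex left out. With single arrays left out it ran from 0 to 7. At 1 day the count of 0 became 1 within cluster 2 (Glra1), with the controls labelled cerebral cortex left out (Gabrd), and without array 3 of 1 day and array 3 of 3 days (Glra1), and it was 0 without any single array. At 3 days the count of 0 became 1 (Glra1) within cluster 2 and without the same 2 arrays, and ran from 0 to 1 with single arrays left out. At 5 days it was 0 under every alternative run. For 5 days against 12 hours the count of 3 became 0 with the clusters as a block and ran from 0 to 4 with single arrays left out. In the F-test the count of 1 became 0 under quantile normalization, median centring, cyclic loess, no filter, the cluster block and the replicate block, 4 with the controls labelled cerebral cortex left out and 2 without the same 2 arrays, and ran from 0 to 3 with single arrays left out. The fits within a cluster, with the replicate block or with arrays left out use fewer arrays, and for the other settings the cause was not tested. Without the controls labelled cerebral cortex, all controls lie in cluster 2 and all arrays of 12 hours in cluster 1.

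Some log2 differences, none of them called, changed sign. Gabbr2 AF058795_at at 12 hours was -0.6064 with the cluster block and -0.638 within cluster 1. With the replicate block, and equally with controls 4 to 6 left out and no pairing, Gabbr1 AB016161cds_r_at was -0.1094 and AB016161cds_i_at was -0.0129 at 12 hours. Gabra4 L08493cds_s_at was -0.3175 at 1 day and Glra1 X55246_at was 0.3821 at 3 days within cluster 1, and Gabbr1 AB016160_g_at was -0.0082 at 5 days within cluster 2 and with the controls labelled cerebral cortex left out.

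Over all 1027 probe sets, in alternatives other than those that leave out a single array, the count ran from 0 to 321 at 12 hours (17 in the fit reported), 0 to 123 at 1 day (3), 0 to 6 at 3 days (0), 0 to 61 at 5 days (0), 0 to 246 for 5 days against 12 hours (169) and 7 to 219 in the F-test (17). With single arrays left out these counts ran from 1 to 211, 0 to 26, 0 to 3, 0 to 2, 1 to 215 and 1 to 114. Quantile normalization moved the median of all probe sets at 12 hours to -0.02, and the receptor median to -0.08. Among the 10 group pairs, same-numbered arrays deviated together in all 3 pairs in 1, that of 1 day and 3 days (correlations 0.390, 0.429 and 0.683), where array 3 of each lies in cluster 1. The labels do not pair the arrays. Signals near the floor understate log2 differences, and 3 arrays a group, with clusters that cross the groups, limit what can be called. For 5 days against 12 hours the calls over all probe sets were 92 higher and 77 lower, and 68 and 89 with median centring.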
